A study of Rattus norvegicus with 22 samples.

Results

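The lungs compared here came from rats killed 2 h after pulmonary embolism (PE) of different severity, 4 rats with Severe PE and 4 rats with Mild PE, which are 8 of the 22 lungs of the series. Both groups were Sprague-Dawley rats of about 350 g per the labels that received 25-micron polystyrene microspheres in 0.01% Tween 20 through the jugular vein, at 20000 microspheres per g body weight (1.5 microliters per g of a 10% suspension) for Severe PE and 13000 (1.0 microliter per g) for Mild PE. The dose of microspheres and the injected volume differed together and cannot be told apart. Reference groups were the 3 Vehicle rats of the same time, given 1.5 microliters per g of 0.01% Tween 20, and the 11 rats of the 18-h time (3 Vehicle, 4 Mild PE and 4 Severe PE). Every lung was lavaged with 8 ml of saline before it was taken out, and RNA came from right lung lobes. Microspheres block vessels without forming a clot, which limits the model. Members were the 31042 probesets of the Affymetrix rat genome array left after the array's own 57 control probesets were removed from 31099, and all 31042 were compared between the 8 lungs.

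Occlusion of pulmonary arteries raises the pressure in the vessels that remain patent and deprives the lung downstream of flow. Mechanical strain, hormones and cytokines switch on immediate early genes such as Fos and Egr1 within minutes, and cells with unfolded protein switch on chaperones through heat shock elements in their promoters. Tumor necrosis factor (Tnf) starts the inflammatory response of macrophages and endothelium, while interleukin 10 (Il10) restrains it.

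Levels are given as log2 of the signal after quantile normalization, so that a difference of 1 is a doubling, and signals of 16 or less were set to 16, a log2 level of 4. A probeset was called when its adjusted p was under 0.05 (limma, Benjamini-Hochberg over all 31042) and the group means differed at least 1.5-fold. By this rule 136 probesets (0.438%) differed between Severe and Mild PE at 2 h, 77 higher (0.248%) and 59 lower (0.19%) in Severe PE. They stood for 51 genes that were higher and 43 that were lower, while 37 of the probesets had no gene symbol and 2 had several. The called differences ran from -3.39 to 4.34. In all 136 probesets the 4 Severe PE rats lay on one side of the 4 Mild PE rats, a separation that 7.50% of all probesets showed. The choice by adjusted p in these same 8 rats itself favors such a separation, which is thus no further support for the calls. An unadjusted p under 0.05 was found for 3824 probesets, where 1552 are the number expected with no difference.

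Surfactant protein C (Sftpc), which marks alveolar type II cells and so the labelled tissue, had a mean of 14.49 in Mild PE and 14.64 in Severe PE. The share of probesets at the floor was 13.6 to 15.8% in the 8 lungs, and the 8 medians before normalization lay between 7.05 and 7.16. The rat Gapdh control gave 3′ over 5′ differences of 0.18 to 0.28 in 7 of the 8 lungs and 0.52 in Severe PE rat 1. Without Severe PE rat 1 the number of called probesets was 346, and 128 of the 136 were among them. Leaving out a single Mild PE rat gave 44 (rat 3), 49 (rat 1), 50 (rat 4) or 55 (rat 2) probesets, and leaving out Severe PE rat 4, 3 or 2 gave 73, 98 or 104. A set of 28 probesets was called in all 8 of these smaller comparisons, among them C2cd4b, Ube3al1, RT1-Bb, Ephx2, Nat8f1, Kalrn, Rsrp1, Dnajb1, Spen, Oas1b, Srsf5, Cdkn1b, Shh and Slco1a5. In whole lung, fewer cells of a type and less RNA per cell cannot be told apart.

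**Figure D1:**
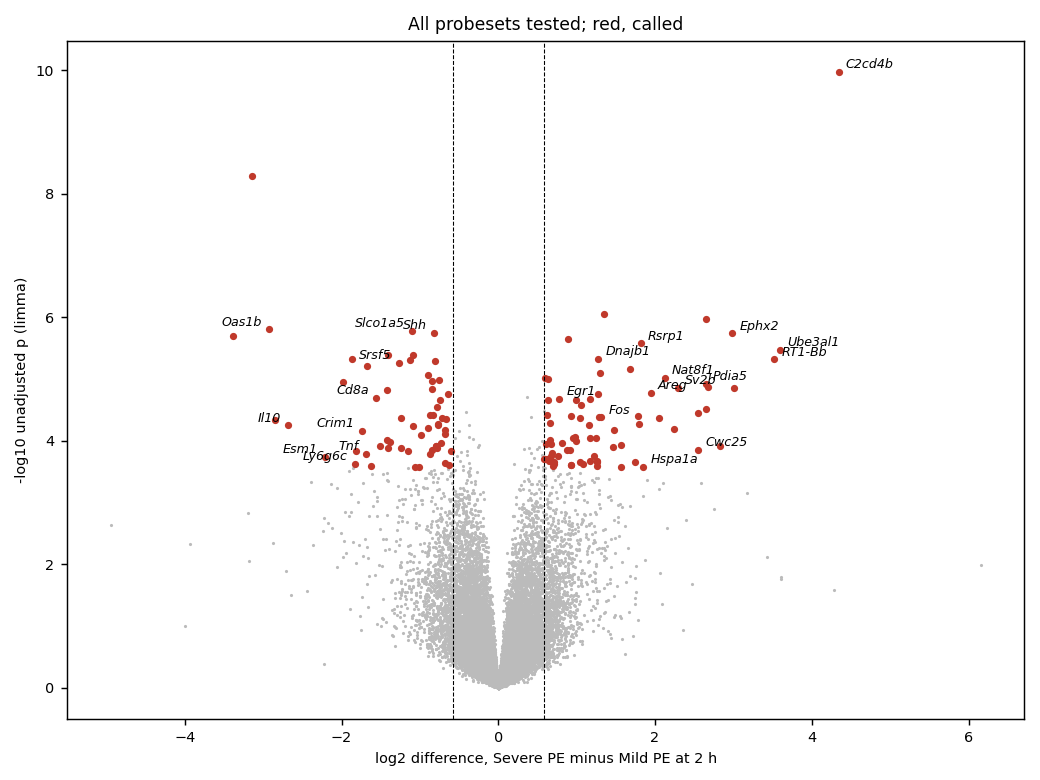
Difference of each of the 31042 probesets between Severe and Mild PE at 2 h (horizontal axis, log2) against the negative log10 of its unadjusted limma p (vertical axis). Red points are the 136 called probesets, dashed lines mark 1.5-fold, and C2cd4b at 4.34 stands farthest to the upper right of the named genes.

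Dnajb1 and Hspa1a, heat shock chaperones that refold proteins under stress, were higher in Severe PE. Of 14 measured chaperones and co-factors all 14 had a positive difference, against 6646 of all 14217 genes. Their median was 0.46 against -0.01 over all genes. Of the 14, 2 were called higher, as were 0.302% of all genes. Dnajb1, the co-chaperone that hands unfolded protein to heat shock protein 70, measured 11.49, 11.54, 11.53 and 11.41 in the 4 Mild PE rats. In the Severe PE rats it measured 12.62, 13.00, 12.59 and 12.84. The groups were far apart and the 3 Vehicle rats (11.51, 11.53 and 11.36) lay with Mild PE. The difference of Dnajb1 was 1.27 ± 0.10 (SE, n = 4 and 4; limma adjusted p = 0.00836), and its other called probeset gave 1.26. Hspa1a, an inducible heat shock protein 70 with a near-identical copy beside it from which the probeset may draw signal, measured 11.40, 11.68, 10.90 and 11.05 in Mild PE. In Severe PE it reached 13.28, 13.60, 12.55 and 13.01, a difference of 1.85 ± 0.27 (limma adjusted p = 0.0498). Here the Vehicle rats were lowest, at 10.64, 10.29 and 10.53. Hspa1a was called in 1 of the 8 comparisons that left out a rat, with differences from 1.68 to 2.04 and a largest adjusted p of 0.142. A called probeset annotated to more than 1 heat shock protein 70 gene, and so not assigned to any of them, measured 10.99, 10.97, 10.20 and 10.22 in Mild PE and 13.78, 13.96, 13.10 and 13.54 in Severe PE. Its difference of 3.0 ± 0.27 (limma adjusted p = 0.0127) was called in all 8 of those comparisons, and its Vehicle rats were at 9.70, 9.70 and 10.05. Other chaperones missed the threshold: Dnaja1, a partner of heat shock protein 70, differed by 1.61 (limma adjusted p = 0.12), Chordc1, which binds heat shock protein 90, by 1.15 (0.20) and Hsph1, a nucleotide exchange factor, by 0.96 (0.37).

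Promoters of the chaperones are shown because their members moved together and the heat shock element is the textbook switch of this family. The letters GAANNTTC or TTCNNGAA, either of which reads the same on both strands, occurred in the 250 bases before the start of 8 of the 11 chaperone genes with a RefSeq promoter (GRCr8), among them Bag3, Dnaja1 and Hspb1, and in 13.2% of all 27457 promoters. Among 42 genes called higher with a promoter, 4 held them (9.52%). The 3-unit heat shock element, which contains the shorter letters and adds a further GAA or TTC at the same spacing, occurred in Hspd1, Hspe1 and Hsph1 and in 0.597% of all promoters. The promoters of 3 chaperones follow 5′ to 3′, with these letters in capitals.

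Dnajb1 (chr19:41431142-41431391, minus strand): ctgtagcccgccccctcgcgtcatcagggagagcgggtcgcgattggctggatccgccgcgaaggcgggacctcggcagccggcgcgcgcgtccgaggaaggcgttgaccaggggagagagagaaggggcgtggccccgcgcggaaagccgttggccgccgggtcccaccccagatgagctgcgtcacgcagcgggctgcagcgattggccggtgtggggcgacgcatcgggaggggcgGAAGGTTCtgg
Hsph1 (chr12:10427118-10427367, plus strand): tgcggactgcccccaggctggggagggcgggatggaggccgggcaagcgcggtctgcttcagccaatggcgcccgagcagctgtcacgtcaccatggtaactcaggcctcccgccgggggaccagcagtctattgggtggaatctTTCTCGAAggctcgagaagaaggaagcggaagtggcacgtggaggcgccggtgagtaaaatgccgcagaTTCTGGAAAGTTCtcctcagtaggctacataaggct
Hspe1 (chr9:64084077-64084326, plus strand): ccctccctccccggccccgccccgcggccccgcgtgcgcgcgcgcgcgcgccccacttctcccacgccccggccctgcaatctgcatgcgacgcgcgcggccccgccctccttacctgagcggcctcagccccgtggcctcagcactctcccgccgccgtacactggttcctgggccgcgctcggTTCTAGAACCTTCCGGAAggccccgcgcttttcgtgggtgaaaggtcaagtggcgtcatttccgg

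Hspe1, the mitochondrial chaperonin 10, held the longest run of the 3 and differed in level by 0.21 (limma adjusted p = 0.71), and Dnajb1 held a single short match. A match is a description of these letters and not of a bound site.

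Rsrp1 and Srsf5, proteins linked to splicing, were called in opposite directions. Rsrp1, an arginine and serine rich protein, measured 11.12, 11.02, 11.25 and 10.83 in Mild PE. It measured 12.68, 12.73, 12.96 and 13.12 in Severe PE, a difference of 1.82 ± 0.13 (limma adjusted p = 0.00742), and a second probeset gave 2.82. Vehicle rats (11.36, 11.44 and 11.83) overlapped neither group. Srsf5, an SR protein that selects splice sites, went the other way, at 11.94, 11.82, 11.75 and 11.73 in Mild PE and 10.38, 10.38, 10.66 and 10.73 in Severe PE. Its difference was -1.27 ± 0.10 (limma adjusted p = 0.00853), with Vehicle at 11.56, 11.57 and 10.97 between the groups. Luc7l, a partner of the U1 particle, was higher by 1.29 (0.98 and not called at its brightest probeset), Khdc4, a splicing cofactor, by 0.99, Cwc25, a protein of the catalytic spliceosome, by 2.55 and the RNA-binding repressor Spen by 0.64. Of 30 SR proteins, their kinases and partners, a list drawn up after these values were seen, 20 had a positive difference and the median was 0.18. At the brightest probeset of each gene 2 were called higher (Rsrp1 and the kinase Dyrk1a, 0.70) and 1 lower (Srsf5). Over all genes 0.302% were called higher and 0.246% lower.

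The immediate early genes Fos and Egr1 were higher in Severe PE than in Mild PE, with the Vehicle rats below both groups. Fos, which pairs with Jun to form the AP-1 factor, measured 10.63, 10.50, 10.47 and 10.12 in Mild PE and 11.97, 11.72, 11.49 and 11.79 in Severe PE. The 3 Vehicle rats were at 8.36, 9.20 and 9.08, below every embolized rat of this time. Severe PE exceeded Mild PE by 1.31 ± 0.14 (limma adjusted p = 0.0208), whereas another, dimmer Fos probeset differed by -0.29. Egr1, a zinc finger factor induced by strain and growth factors, measured 12.55, 12.66, 12.63 and 12.61 in Mild PE, 13.51, 13.52, 13.28 and 13.25 in Severe PE, and 9.85, 10.66 and 10.12 in Vehicle. The difference of Egr1 was 0.78 ± 0.08 (limma adjusted p = 0.0148). Among 14 AP-1 genes 13 had a positive difference, against 6646 of all 14217 genes, and the median was 0.47. Fos alone was called, where 0.302% of all genes were called higher. Those nearest to a call were Atf3 (0.91, limma adjusted p = 0.073) and Fosb (1.28, 0.085). Junb differed by 0.61 (0.16) and Jun by 0.46 (0.26). Of 19 genes of the Egr and Nr4a list 14 were positive, with a median of 0.21. Myc, a growth regulator, differed by 1.27 (limma adjusted p = 0.058), and Nr4a1, an orphan nuclear receptor, by -0.78 (0.29). Fos and Egr1 were called in 3 and 4 of the 8 comparisons that left out a rat, with largest adjusted p of 0.0813 and 0.0647.

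Areg and Ereg, ligands of the epidermal growth factor receptor, were higher in Severe PE, while the Mild PE rats lay near the Vehicle rats. Areg (amphiregulin) measured 8.05, 7.64, 7.70 and 7.69 in Mild PE. In Severe PE it measured 9.78, 9.82, 9.24 and 10.03, a difference of 1.94 ± 0.18 (limma adjusted p = 0.014), and the Vehicle rats gave 7.88, 8.28 and 8.06. Ereg (epiregulin), which lies next to Areg in the genome with 0 protein-coding genes between them (GRCr8 gene order), measured 6.36, 6.20, 6.14 and 6.05 in Mild PE and 7.69, 7.32, 7.21 and 7.17 in Severe PE. Ereg differed by 1.16 ± 0.13 (limma adjusted p = 0.0237), and its Vehicle rats (6.13, 5.99 and 6.31) overlapped the Mild PE rats. Hbegf, another ligand, differed by 0.80 (limma adjusted p = 0.067). These were the 3 smallest p of the 14 genes of the family, whose median was 0.25. The receptors Egfr (-0.10) and Erbb2 (-0.00) had unadjusted p of 0.77 and 0.98. Areg is printed with the letters TGACGTCA, the cAMP response element, in capitals. They occurred in Areg alone of the 11 promoters of this family, and in 1.7% of all promoters.

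Areg (chr14:17265642-17265891, minus strand): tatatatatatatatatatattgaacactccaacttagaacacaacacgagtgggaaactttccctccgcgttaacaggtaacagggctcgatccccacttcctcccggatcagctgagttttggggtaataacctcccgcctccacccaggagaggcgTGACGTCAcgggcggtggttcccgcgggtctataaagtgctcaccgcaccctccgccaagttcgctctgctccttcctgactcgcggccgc

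Other receptors and secreted proteins were also called higher. Adora2b, the low-affinity adenosine receptor that raises cAMP, measured 8.29, 8.53, 8.73 and 8.50 in Mild PE and 9.49, 9.23, 9.60 and 9.53 in Severe PE, a difference of 0.95 (limma adjusted p = 0.0322). Pvr (CD155), a receptor of nectins and of lymphocytes, differed by 0.92 (0.0494) and Vegfb, a ligand of the VEGF receptor 1, by 0.68 (0.0398). Bhlha15 (Mist1), a factor of secretory cells, was at 5.57, 5.12, 5.22 and 5.56 in Mild PE and 6.40, 6.45, 6.35 and 6.44 in Severe PE. Its difference was 1.04 (limma adjusted p = 0.0208). Ccl19, the chemokine that guides lymphocytes and dendritic cells, was 8.65, 8.14, 8.09 and 8.34 in Mild PE and 9.16, 9.56, 9.26 and 9.42 in Severe PE, a difference of 1.05 (0.0471) in which Vehicle (9.34, 9.38 and 8.88) lay with Severe PE. Dpt (dermatopontin), a matrix protein of fibroblasts, differed by 1.25 (0.0471) and at its brighter probeset by 0.84 (0.099), with Vehicle at 10.75 to 10.85, within the Severe PE range of 10.22 to 10.93 and above every Mild PE rat. Fibroblast markers had summed linear signals of 64108 to 69544 in Mild PE, 68508 to 88294 in Severe PE and 70509 to 75809 in Vehicle, and their part in the Dpt result was not tested. Each of these 6 genes was called in 4 or fewer of the 8 comparisons that left out a rat.

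The largest rise among the named genes was that of C2cd4b. C2cd4b, a nuclear protein of cytokine-treated endothelium, was at the floor of 4.0 in all 4 Mild PE rats, while the Severe PE rats measured 8.32, 8.52, 8.33 and 8.19 and the Vehicle rats 6.54, 6.75 and 6.56. Severe PE was therefore at least 20.3-fold higher than Mild PE (limma adjusted p = 3.23e-06). Against Vehicle, C2cd4b differed by -2.62 in Mild PE (limma adjusted p = 0.000177) and by 1.72 in Severe PE (0.0198), 2 comparisons that share their Vehicle rats. No C2cd4b value of an 18-h Mild PE rat was at the floor (6.74 to 8.59). However, 18-h Vehicle rat 2 was at the floor of 4.0, while 18-h Vehicle rats 1 and 3 measured 7.24 and 7.72, so a rat without microspheres could also lack this signal.

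Ube3al1 measured 4.89, 5.09, 5.92 and 5.84 in Mild PE and 9.22, 9.14, 8.78 and 8.95 in Severe PE, a difference of 3.59 ± 0.26 (limma adjusted p = 0.00836). Vehicle rats (8.36, 9.11 and 9.35) overlapped Severe PE. Ephx2, the soluble epoxide hydrolase that inactivates epoxyeicosatrienoic acids, measured 6.53, 6.09, 5.91 and 5.91 in Mild PE and 9.0, 9.22, 8.73 and 9.44 in Severe PE. Its difference was 2.99 ± 0.20 (limma adjusted p = 0.00695), and the Vehicle rats spread from 5.75 to 8.22. Pdia5, a disulfide isomerase of the endoplasmic reticulum, measured 6.89, 7.10, 6.77 and 7.24 in Mild PE and 9.22, 10.28, 9.61 and 9.47 in Severe PE, a difference of 2.65 ± 0.24 (limma adjusted p = 0.0119). Its Vehicle rats (9.97, 9.32 and 9.0) lay within or near the Severe PE range. Pdia5 was called in 6 of the 8 comparisons that left out a rat, with a largest adjusted p of 0.0528.

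RT1-Bb, the beta chain of the class II molecule RT1.B, measured 8.17, 8.35, 7.53 and 8.25 in Mild PE and 11.61, 12.22, 11.27 and 11.29 in Severe PE, a difference of 3.52 ± 0.27 (limma adjusted p = 0.00836). Another RT1-Bb probeset, the dimmer of the pair, differed by -2.23 (limma adjusted p = 0.80), and RT1-Bb belongs to a family of similar genes that may share probe signal. Vehicle rats for the brighter probeset were at 12.02, 11.24 and 7.27, spanning both groups. Kalrn (kalirin) also had probesets that disagreed: the called one differed by 1.67 and the other 3 by -0.44 to -0.15. Sv2b, a vesicle glycoprotein, differed by 2.29 (limma adjusted p = 0.0127), with other probesets at -0.10 and 0.40. Mecom, a zinc finger factor, differed by 1.79 (0.0208) and by 0.17 at its brighter probeset, and Mga, a partner of Max, by 1.8 (0.0237). Nat8f1, an N-acetyltransferase, was at 4.0, 4.27, 4.41 and 4.0 in Mild PE and 5.91, 6.59, 6.54 and 6.15 in Severe PE, a difference of 2.12 ± 0.18 (limma adjusted p = 0.0114). With a floor of 64 neither Nat8f1 (0.32) nor Kalrn (0.02) was called. Cwc25 (limma adjusted p = 0.0374) was at 5.16 to 6.36 in Mild PE, 8.13 to 9.05 in Severe PE and 7.90 to 8.13 in Vehicle.

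**Figure D2:**
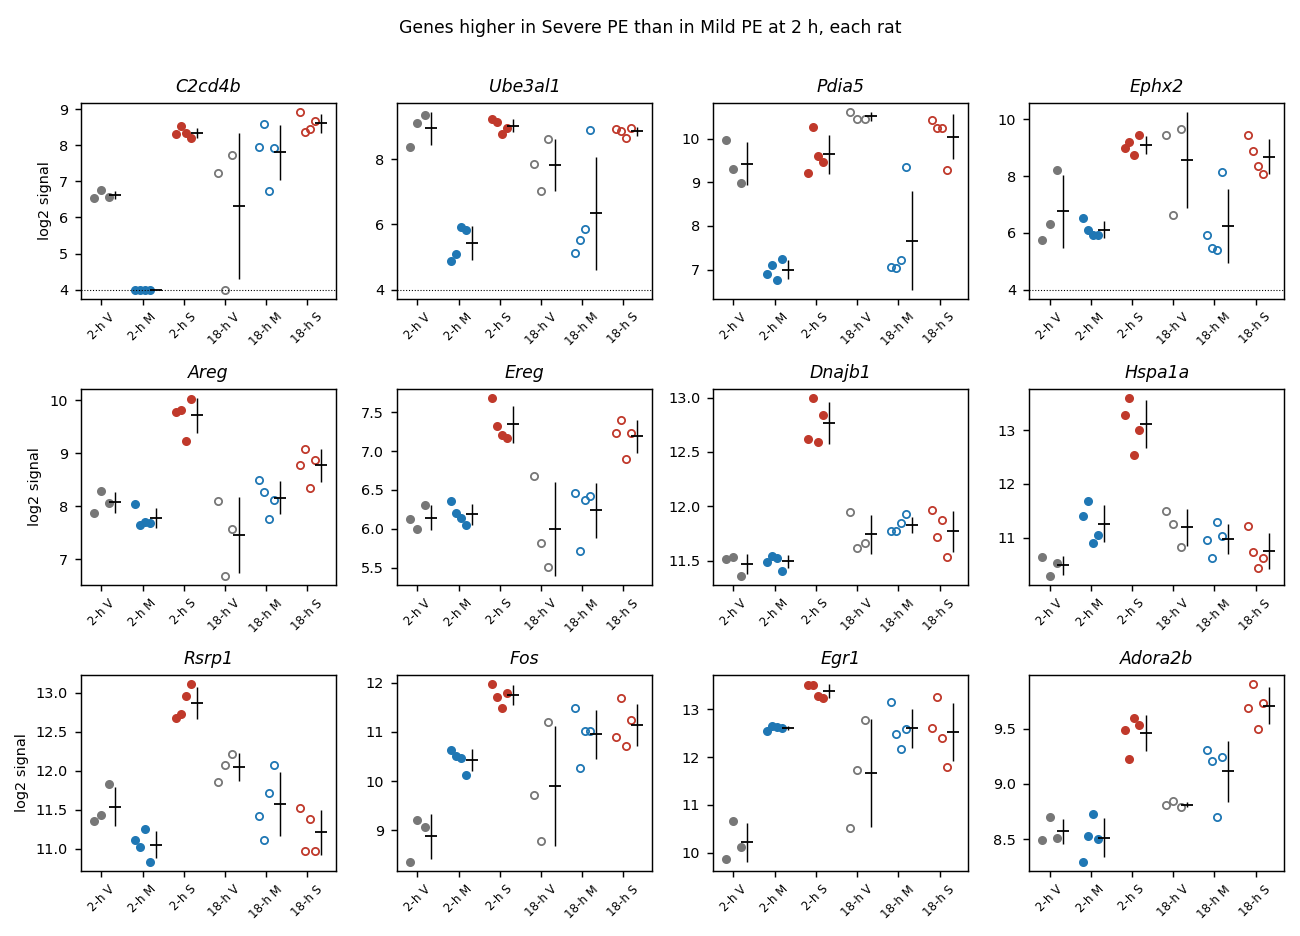
Log2 signal of each rat (vertical axis) for 12 genes called higher in Severe PE, in 2-h Vehicle (V), Mild PE (M) and Severe PE (S) with filled points and the 18-h groups with open points. Black bars are means ± SD and the dotted line is the floor of 4. In all 12 panels the 2-h Severe PE points lie above the 2-h Mild PE points. In the Ube3al1, Pdia5 and Ephx2 panels 1 of the 4 open Mild PE points lies above the other 3.

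Cytokines did not move in a single direction. Of 19 measured cytokines 2 were called, both lower in Severe PE (0.246% of all genes were called lower), and 11 had a positive difference. Tnf measured 11.71, 11.47, 11.25 and 11.40 in Mild PE. In Severe PE it measured 9.45, 10.40, 9.48 and 9.71, and in Vehicle 7.87, 7.25 and 6.90, so that the 3 groups did not overlap and Severe PE lay in the middle. Severe PE was lower than Mild PE by -1.69 ± 0.23 (limma adjusted p = 0.0398), and the other Tnf probeset gave -1.90. Il10 measured 7.28, 6.71, 7.30 and 6.35 in Mild PE, while 3 of the 4 Severe PE rats and all 3 Vehicle rats were at the floor and Severe PE rat 2 was at 4.90. Its difference was -2.68 ± 0.30 (limma adjusted p = 0.0237), a size that the floor sets in part: with a floor of 64 it was -0.91 and not called (0.19). Il1b, the inflammasome cytokine, differed by -1.04 (limma adjusted p = 0.23) and Il6, an inducer of acute phase proteins, by 1.76 (0.32). Tnf was called in 2 and Il10 in 3 of the 8 comparisons that left out a rat, with largest adjusted p of 0.12 and 0.0857.

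Chemokines likewise had differences of both signs. Ccrl2, a receptor that presents chemerin without signaling, measured 11.38, 11.67, 11.58 and 11.08 in Mild PE and 9.49, 10.26, 9.94 and 9.97 in Severe PE, with Vehicle at 9.37, 9.28 and 8.73. It was lower in Severe PE by -1.51 ± 0.19 (limma adjusted p = 0.0367). Of 14 CC chemokines Ccl19 was called (0.302% of all genes were called higher) and 10 were positive. Ccl3, a monocyte attractant, differed by -0.81 (limma adjusted p = 0.15), and Ccl2, another, by 0.56 (0.60). None of 12 CXC chemokines was called, and 3 of them had an unadjusted p under 0.05. The neutrophil attractant Cxcl1 differed by 1.36 (limma adjusted p = 0.12) and Cxcl2, of the same function, by -0.62 (0.41).

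Esm1, Crim1, Ackr1 and Jam2, genes of endothelium, were lower in Severe PE. Esm1 (endocan), a proteoglycan that activated endothelium secretes, measured 9.08, 9.21, 8.98 and 9.47 in Mild PE. It measured 7.71, 7.07, 6.85 and 6.24 in Severe PE and 7.45, 7.26 and 7.65 in Vehicle, so that Severe PE overlapped Vehicle and Mild PE stood above both. The difference was -2.22 ± 0.30 (limma adjusted p = 0.0426). Crim1, a membrane protein that binds bone morphogenetic proteins, measured 11.34, 11.77, 11.89 and 11.71 in Mild PE, 9.45, 10.15, 10.26 and 9.90 in Severe PE and 10.06, 9.51 and 9.52 in Vehicle, a difference of -1.74 ± 0.20 (limma adjusted p = 0.0269). Ackr1, the chemokine-binding receptor of venules, was lower by -1.24 (0.0371) and Jam2, a junction molecule, by -0.64 (0.0141). Other probesets of Jam2 differed by -0.49 to 0.10, the brightest of them by -0.42 (limma adjusted p = 0.58). Of these 4 genes Jam2 was called in 4 of the 8 comparisons that left out a rat, Crim1 and Ackr1 in 2 and Esm1 in 1 (largest adjusted p = 0.131).

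Of 13 endothelial markers 12 had a negative difference, with a median of -0.27, and none was called. Tek, the angiopoietin receptor, differed by -0.67, Sox18 by -0.79 and Vwf, the platelet-binding protein of endothelium, by -0.26 (limma adjusted p = 0.33, 0.35 and 0.12). The summed linear signal of the 13 markers was 60096 to 70533 in Severe PE, 77190 to 84272 in Mild PE and 69086 to 77216 in Vehicle. No marker was at the floor throughout, and the sums of Severe PE and Mild PE did not overlap. This separation was not particular to endothelium. Sums of alveolar type II markers (153357 to 158094 in Mild PE, 159617 to 168340 in Severe PE) were also apart, higher in Severe PE. So were those of alveolar type I cells (89009.5 to 91978.7 and 92550.5 to 101500) and mesothelium (14337 to 14875 and 15158 to 16581). The sums of the other cell type lists overlapped. The part of the endothelial shift in the results for Esm1, Crim1, Ackr1 and Jam2 was not tested.

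Cd8a, Fas and Cytip, genes of lymphocytes and their death pathway, were lower in Severe PE. Cd8a, the co-receptor of cytotoxic T cells, measured 10.02, 9.90, 10.14 and 9.85 in Mild PE and 8.75, 8.16, 8.57 and 8.19 in Severe PE, a difference of -1.56 ± 0.15 (limma adjusted p = 0.0148). A second Cd8a probeset was called at -0.79 and a further probeset differed by -1.01. Vehicle rats (9.58, 9.29 and 8.19) lay below every Mild PE rat, and 1 of the 3 fell within the Severe PE range. Fas, the death receptor, measured 7.62, 7.50, 7.73 and 7.43 in Mild PE and 6.15, 5.79, 6.62 and 6.19 in Severe PE, a difference of -1.38 ± 0.17 (0.0342). At its brightest probeset Fas differed by -0.46 (limma adjusted p = 0.38) and at another by -0.11. Cytip, which regulates adhesion of lymphocytes, was lower by -0.77 (0.0237). Of 11 T cell markers 3 were positive, with Cd8a as the single call (0.246% of all genes were called lower). Of 9 natural killer and cytotoxic markers 1 was positive and none was called, with a median of -0.46. Klrb1a, a receptor of natural killer cells, differed by -0.71 (limma adjusted p = 0.14). T cell markers summed to 4660 to 7548 in Severe PE, 6717 to 8027 in Mild PE and 4378 to 10357 in Vehicle, with no marker at the floor throughout. These ranges overlap, and their part in the Cd8a result was not tested.

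Oas1b, of the interferon-stimulated oligoadenylate synthetase family, measured 7.10, 7.38, 6.45 and 7.04 in Mild PE. Severe PE rats were at 4.0, 4.18, 4.0 and 4.08 and all Vehicle rats at the floor. Its difference was -2.93 ± 0.19 (limma adjusted p = 0.00695), a size that the floor sets in part: with a floor of 64 it was -0.99 and not called (0.12). Of 21 interferon-stimulated genes 18 had a negative difference and the median was -0.36. Oas1b alone was called, where 0.246% of all genes were called lower. Isg15, a ubiquitin-like protein, differed by -0.77 (limma adjusted p = 0.21) and Ifit1, which binds foreign RNA, by 1.15 (0.12). Of 8 class II genes RT1-Bb was the only one with a positive difference, and the median was -0.37. RT1-Db1, the beta chain of RT1.D, differed by -0.49 (0.13), and Ciita, the class II transactivator, by -0.60 (0.42).

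The other large falls had no common list. Ly6g6c, of the Ly6 family, measured 9.01, 8.35, 8.44 and 8.77 in Mild PE and 7.07, 6.12, 7.09 and 6.96 in Severe PE, a difference of -1.83 ± 0.26 (limma adjusted p = 0.0489). Its neighbour Ly6g6e was lower by -0.99 (0.0306). Cdkn1b (p27), the inhibitor of cyclin-dependent kinases, measured 12.68, 12.77, 12.83 and 12.96 in Mild PE and 12.02, 11.95, 11.79 and 11.88 in Severe PE, a difference of -0.90 ± 0.08 (0.0113). Ttll11, a tubulin glutamylase, differed by -1.63 (limma adjusted p = 0.0498), Tspan17, a tetraspanin, by -1.43 (0.0335), Vwa8, a mitochondrial ATPase, by -1.42 (0.013), Dclk3, a kinase, by -1.41 (0.037) and LOC100909675 by -1.41 (0.00836). At their brightest probesets Tspan17 differed by -0.60 (limma adjusted p = 0.17) and Vwa8 by -0.46 (0.16). Some of these falls lay near the floor. With a floor of 64 Ly6g6e (-0.44), Ttll11 (-0.30), Dclk3 (-0.17) and Tspan17 (0) were not called. Shh, the hedgehog morphogen, was at 4.73, 4.76, 4.83 and 4.96 in Mild PE and at the floor in all Severe PE and Vehicle rats, which makes Mild PE at least 1.76-fold higher (limma adjusted p = 0.00695). With a floor of 64 no difference of Shh was left (0).

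**Figure D3:**
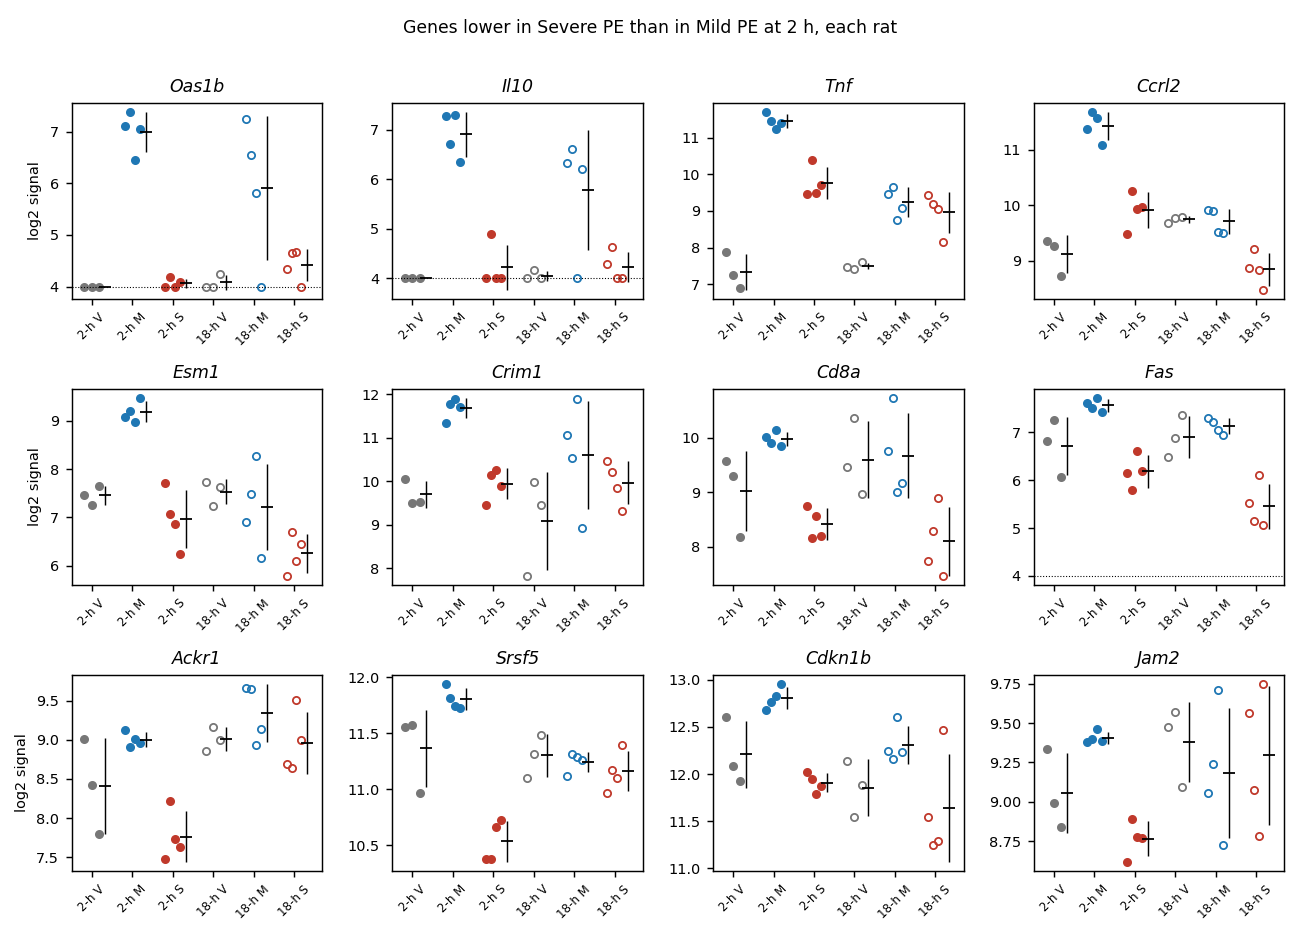
Log2 signal of each rat (vertical axis) for 12 genes called lower in Severe PE, in the 3 groups of 2 h (filled points) and of 18 h (open points), V for Vehicle, M for Mild PE and S for Severe PE. Black bars are means ± SD and the dotted line is the floor of 4. In the Tnf panel the 2-h Severe PE points (9.45 to 10.40) lie between those of Vehicle and Mild PE, and in the Srsf5 panel the 18-h groups overlap.

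Of the 64 gene lists examined 34 had a median within 0.1 of 0. Hypoxia-responsive genes had a median of 0.08 over 20 members, coagulation and fibrinolysis 0.11 over 19, subunits and inhibitors of NF-kB 0.01 over 12, and platelet markers 0.00 over 8, with no member called in these 4 lists. Neutrophil markers had a median of -0.28 over 13. The one call on this list was Ly6g6c, a Ly6 family gene that is not the neutrophil antigen Ly6G, so its call does not mark neutrophils. S100a8 and S100a9, the abundant calprotectin subunits, differed by -0.55 and -0.38 (limma adjusted p = 0.77 and 0.79). Neutrophil markers summed to 7767 to 22323 in Mild PE and 6392 to 15915 in Severe PE, ranges that overlap. Markers of monocytes and interstitial macrophages had a median of -0.36 over 12, with 3 positive. Set against the same Vehicle rats, heat shock chaperones had medians of -0.05 in Mild PE and 0.43 in Severe PE, AP-1 genes 0.75 and 1.0, interferon-stimulated genes 0.43 and 0.04, and endothelial markers 0.16 and -0.24.

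**Figure D4:**
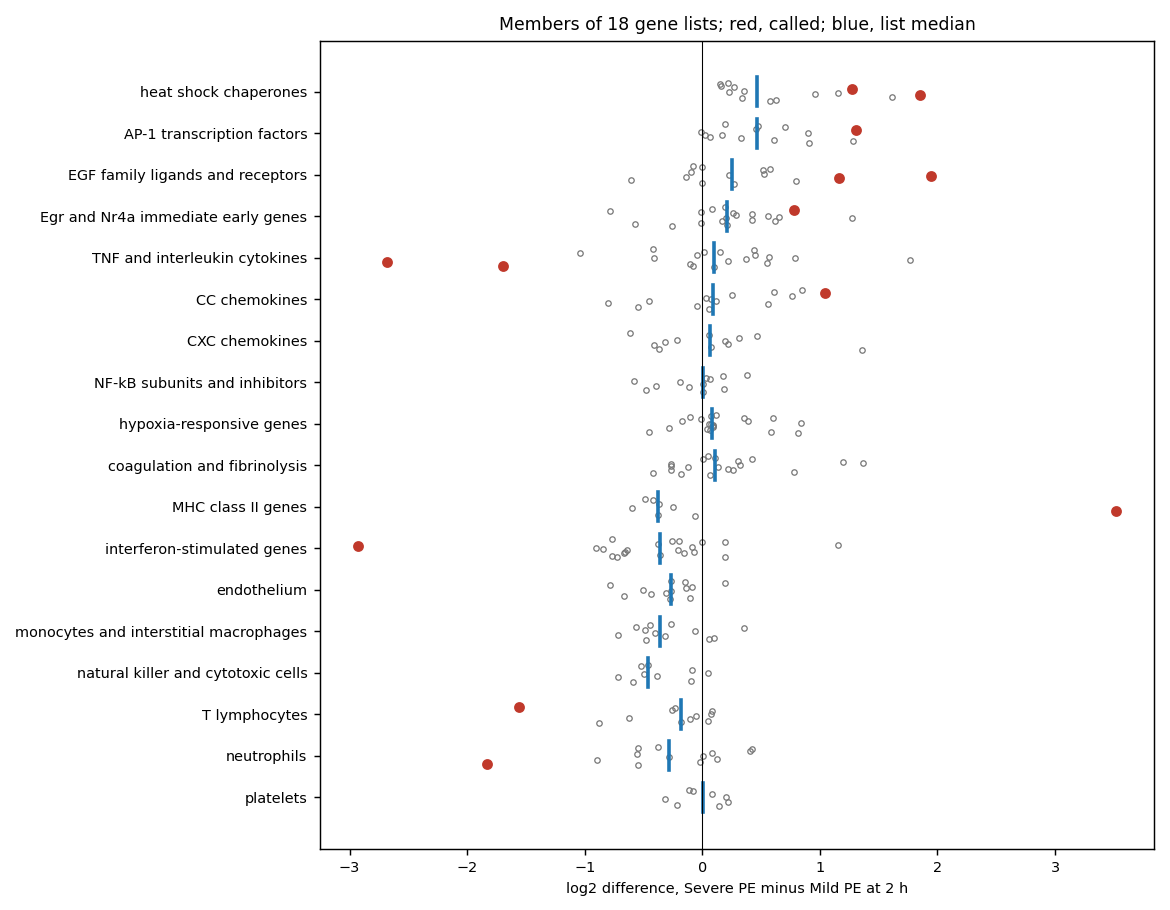
Members of 18 gene lists by their difference between Severe and Mild PE at 2 h (horizontal axis, log2; 1 point a gene at its brightest probeset). Red points were called and blue bars are list medians. All 14 heat shock chaperones lie to the right of 0, and 12 of 13 endothelial markers lie to the left.

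Vehicle rats were not used to choose the called probesets. Their mean lay between both PE groups in 56 of the 77 higher and 48 of the 59 lower probesets. A choice by a wide gap between the PE groups itself favors a Vehicle mean between them, and the share over all probesets is not given here. These counts thus do not test whether the doses moved opposite ways from Vehicle. Order by dose, with Mild PE between Vehicle and Severe PE, was seen in 16 of the 77 and 1 of the 59. Severe PE lay between Vehicle and Mild PE in 5 and 10. Compared with Vehicle over all probesets, Mild PE had 103 called (0.332%) and Severe PE 7 (0.0226%) at 2 h, and both counts rest on the same 3 Vehicle rats. Calls depend on the spread between rats as well as on the size of a change, so these counts do not rank the doses. Fos was called against Vehicle in neither group, at 1.55 in Mild PE (limma adjusted p = 0.085) and 2.86 in Severe PE (0.061).

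At 18 h the comparison of Severe with Mild PE had 0 called probesets (0%), with 4340 at an unadjusted p under 0.05 and a smallest limma adjusted p of 0.0731. Without 18-h Mild PE rat 4 there were 80. In the 18-h rats, none of whom chose the probesets, 105 of the 136 (77.2%) had a difference of the same sign as at 2 h, against 55.0% of all probesets. The median 18-h difference was 0.23 for the 77 higher probesets and -0.46 for the 59 lower, compared with 1.17 and -1.06 at 2 h. The 2-h rats chose these probesets, which enlarges the 2-h medians, so the fall alone does not show that the dose difference faded. With 18-h Mild PE rat 4 left out, a choice made after seeing the data, 109 of the 136 (80.1%) had the same sign against 55.6% of all probesets, and the medians were 0.41 and -0.61. The 4 Severe PE rats of 18 h lay apart from the 4 Mild PE rats, on the same side as at 2 h, in 18 of the 136 (13.2%), against 5.28% of all probesets, among them Cd8a (-1.57), Fas (-1.67), Ccrl2 (-0.86), Bhlha15 (1.66), Ereg (0.95) and Adora2b (0.59).

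To place each rat, its level at every called probeset was set on a scale from 0, the 2-h Mild PE mean, to 1, the 2-h Severe PE mean. Over the 77 higher probesets the median place was 0.20 to 0.31 in 18-h Mild PE rats 1 to 3, 0.72 in 18-h Mild PE rat 4, and 0.63 to 0.82 in the 18-h Severe PE rats. Over the 59 lower probesets the same rats were at 0.16 to 0.27, 0.71 and 0.66 to 1.0. The 2-h Vehicle rats were at 0.25, 0.33 and 0.53 over the higher and 0.58 to 0.82 over the lower probesets, and the 18-h Vehicle rats at 0.50 to 0.64 and 0.55 to 0.86. So 1 Mild PE rat of 18 h stood within the range of the Severe PE rats of its time. Single genes differed in this: Pdia5 was 7.06, 7.04 and 7.22 in 18-h Mild PE rats 1 to 3 and 9.35 in rat 4, Ube3al1 5.12, 5.51, 5.86 and 8.91, and Oas1b 7.25, 6.54, 5.82 and 4.0. In contrast, RT1-Bb was at the floor in rat 4 and 8.43 to 12.06 in 18-h Severe PE, Kalrn was at the floor in rat 4, and Il10 was at 6.21 in rat 4 and 4.0 to 4.64 in 18-h Severe PE. The Gapdh 3′ over 5′ difference was 0.49 in 18-h Mild PE rat 4, and its part in this placement was not tested.

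**Figure D5:**
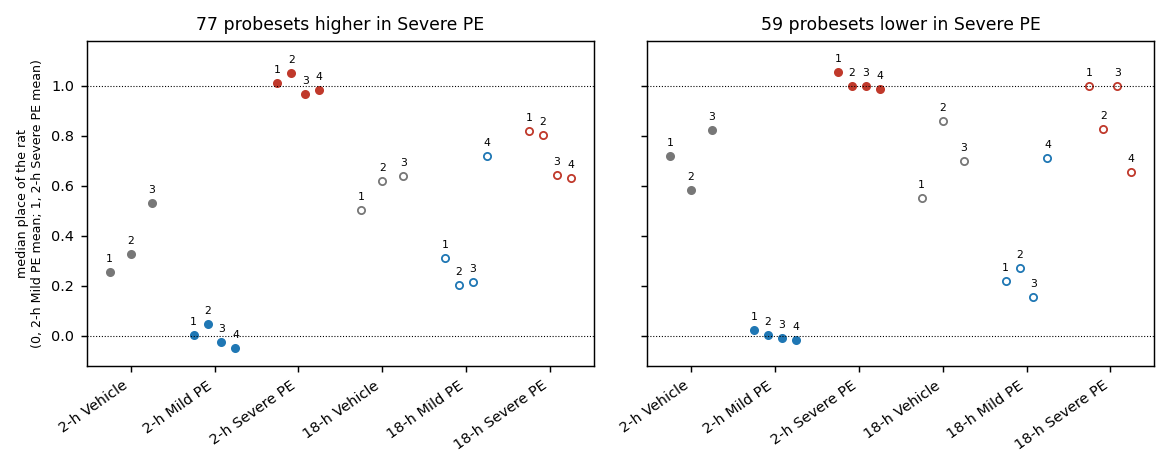
Median place of each of the 22 rats (vertical axis; 0 is the mean of 2-h Mild PE and 1 the mean of 2-h Severe PE) over the 77 probesets called higher (left) and the 59 called lower (right), with rat numbers beside the points. The 2-h PE rats define the scale. Rat 4 of 18-h Mild PE stands at 0.72 and 0.71 while the other 3 rats of its group stand at 0.31 or less.

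A test of the change in the dose difference between the times, over all 22 lungs, called 25 probesets (0.0805%), 17 with a more negative and 8 with a more positive difference at 18 h. Of the 25, 13 were among the 136, an overlap the test favors because its change includes the 2-h difference that chose them. Rsrp1 and Hspa1a had the most negative changes of the named genes. Rsrp1 changed by -2.18 ± 0.26 (limma adjusted p = 0.00107), since its difference of 1.82 at 2 h was -0.37 at 18 h, and its other probeset by -3.27 (0.00686). Hspa1a changed by -2.08 ± 0.33 (0.0165), the heat shock protein 70 probeset of several genes by -3.17 ± 0.35 (0.000808) and Dnajb1 by -1.33 ± 0.15 (limma adjusted p = 0.000808). For Dnajb1 the 18-h rats measured 11.77 to 11.93 in Mild PE, 11.53 to 11.96 in Severe PE and 11.62 to 11.95 in Vehicle, which overlap. Srsf5 changed by 1.19 ± 0.19 (0.0161), and its 18-h means were 11.24 in Mild PE and 11.16 in Severe PE. Banp, a nuclear matrix protein, changed by -1.52 (0.0242), Spen by -0.83 (0.00107) and Khdc4 by -1.0 (0.005). Msx1, a homeobox factor, and Gckr, the glucokinase regulator, were not called at 2 h (0.25 and 0.23) and differed by -1.18 and -1.16 at 18 h. More positive at 18 h were Marchf7, a ubiquitin ligase (1.33), Endod1, a nuclease-like protein (1.29), and Fasn, the fatty acid synthase (0.59). Without the 4 lungs of highest Gapdh 3′ over 5′ difference this test called 165 probesets, 23 of the 25 among them, and 53 when only 2-h Severe PE rat 1 was left out. Omitting Mild PE rat 2 of 2 h gave 14 probesets and omitting Mild PE rat 4 of 18 h gave 42.

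Genes called in this comparison lay next to each other in 3 pairs of the RefSeq gene order. Areg and Ereg were both higher and Ly6g6c and Ly6g6e both lower, while Ackr1 was lower and its neighbour Cadm3, a cell adhesion molecule, was higher by 1.24 (limma adjusted p = 0.0322) and by 0.52 (0.49) at its brighter probeset. Within a cluster of N-acetyltransferases Nat8f1 (2.12) and Nat8f3 (0.93) were higher and Nat8b was lower (-1.06), and these paralogs may share probe signal.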

How the data were processed

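Per the labels and the study's methods, RNA of 22 rat lungs was hybridised to 1 Affymetrix rat genome array each. The intensity values deposited by the authors are linear signals per probeset, and each array's trimmed mean (2% removed at each end) was 500.1 to 500.2. The study's methods name GC-RMA for its own analysis, whereas these signals are linear and scaled to a common trimmed mean, so the methods' t-test run here may rest on other values than the study's. What summarised the deposited signals is not given in the sources used here. From them, 57 controls were removed, signals were floored at 16, log2 transformed and quantile normalized over 22 arrays. Severe and Mild PE at 2 h were compared with limma 3.58.1 (R 4.3.3, lmFit and eBayes), with Benjamini-Hochberg adjustment. The number of arrays limits the precision.

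Of 31042 probesets 20826 had 1 gene symbol in the platform annotation, 436 several and 9780 none. Lists used the brightest probeset of each gene. A called gene was named by its called probeset of smallest p, with rat values for the 15 largest rises and 15 largest falls, and for other named list members. The comparison and the lists were chosen with earlier results of these data known, and the list of SR proteins was added after its values were seen. Promoters were RefSeq's (GRCr8). In simulated data with 200 changed probesets of 31042, the same test recovered 48.6% at 2-fold and 91.0% at 4-fold, with 6.06% of calls false. The changed probesets were drawn from brighter ones only, with independent normal noise and without a floor or normalization. These rates therefore do not cover calls near the floor or errors shared between probesets. Alternatives covered scaling, floor, dim probesets, variance trend, the methods' t-test, the samples fitted, a replicate block and leaving out rats.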

Additional observations from a re-analysis of the deposited data

Results flagged for a closer look

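Within groups of 4 rats, 11 single values stood far from the other 3 of their group among the 30 genes described by rat, out of 118 such groups. For normally distributed values the rate would be about 1 in 20. Floored values and genes chosen by their 2-h groups depart from that, so the 11 cannot be set against it. In 18-h Mild PE rat 4 Pdia5 was at 9.35 (next highest 7.22) and RT1-Bb at the floor of 4.0 (next lowest 7.76). In 18-h Mild PE rat 3 Il10 was at the floor of 4.0 (next 6.21). In 18-h Severe PE, Pdia5 was at 9.28 in rat 4 (next 10.24) and Ly6g6c at 6.13 in rat 3 (next 6.99). In 2-h Severe PE rat 2 Il10 was at 4.90 while the other 3 rats were at 4.0, and Ly6g6c was at 6.12 (next 6.96). In 2-h Mild PE, Cwc25 was at 5.16 (next 6.19) and Mecom at 5.59 (next 5.87) in rat 4, Kalrn at 4.65 (next 4.17) in rat 3, and Areg at 8.05 (next 7.70) in rat 1. Causes were not tested.

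The difference between Severe and Mild PE changed between 2 h and 18 h by limma's test of that change in 17 named genes. It became more negative for Rsrp1 (-3.27 and -2.18 at 2 probesets), Hspa1a (-2.08), Banp (-1.52), Msx1 (-1.43), Gckr (-1.39), Dnajb1 (-1.33), Azgp1 (-1.31), Luc7l (-1.15), S100pbp (-1.05), Khdc4 (-1.0), Polr1d (-0.86), Spen (-0.83) and Nfya (-0.62). It became more positive for Marchf7 (1.33), Endod1 (1.29), Srsf5 (1.19) and Fasn (0.59).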

How the results depend on the processing

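The 136 calls at 2 h became 84 with a floor of 64, 234 with dim probesets left out, 54 by the methods' t-test and 342 without the 4 lungs of low 5′ control signal, a choice made after seeing the data. Leaving out 1 rat at a time gave 44 to 346. Rats with the same number in both groups did not deviate together (correlations -0.04 to 0.08), and a replicate block left 1 call. Other settings gave 92 to 179, but not always the same probesets. The fit on 22 arrays kept 76 of the 136 and added 103, and that on the 11 arrays of 2 h kept 93 and added 61. Not called on 22 arrays were, among others, Egr1 (limma adjusted p = 0.47), Fos (0.15), RT1-Bb (0.20) and Shh (0.44). No called probeset turned its sign under the other scalings, floors and tests of single probesets or with 1 rat left out. The tests and left-out rats could not turn one, since the tests share the group means and all 136 separated the groups. A difference of 0 also counted as not turned. The 25 calls of the change between times became 15 with median centring, 40 with no further normalization, 41 with a floor of 32, 55 with a floor of 64, 165 without the 4 lungs and 21 with the replicate block, and 14 to 53 with 1 rat left out. The 0 calls at 18 h stayed 0 with the replicate block and were 0 to 80 with 1 rat left out. For the 30 genes described by rat, 339 alternative values kept the call, 104 lost it and 0 turned, with the same limit on turning. Among alternative medians of the gene lists, 378 stayed within the spread between rats and 12 did not. The cause of these changes was not tested.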
